A study of Drosophila melanogaster with 2 samples.

Results

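Regions of DNA recovered with GFP-tagged Sage, a salivary gland transcription factor of the basic helix-loop-helix (bHLH) family, were examined at 10 genes. These were listed together as regulators of the endocycle and of G1/S, the step into S phase. The genes were E2f1, E2f2, Dp, Rbf, CycE, Cdk2, dap, fzr, stg and SuUR, taken by symbol from the Ensembl BDGP6 annotation, which holds 13945 protein-coding genes on the chromosome arms, and all 10 symbols were found. A region counted for a gene when its summit lay in the gene or within 2 kb of it. The material was whole wandering larvae of the third instar, males and females together, of 1 transgenic Drosophila line that stably carries Sage with GFP at its C-terminus; the immunoprecipitation used an antibody against GFP by the samples' description, while another label names Sage as the antibody's target. Biological replicates 3 and 4 form the only group, so nothing here is a comparison between conditions, and the age of the larvae in hours is not given in the labels. Because whole animals were used, strong binding in few cells and weak binding in many cells cannot be told apart, and a peak list cannot check which tissue a region came from.

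In an endocycle a cell replicates its DNA again and again without dividing, which is how larval tissues such as the salivary gland make polytene chromosomes. Entry into S phase is driven by E2F1 with its partner DP, which switch on cyclin E and replication genes, and by cyclin E with its kinase CDK2. RBF and E2F2 restrain the same targets, and Dacapo (dap) inhibits cyclin E/CDK2. Fizzy-related (fzr) sends mitotic cyclins to destruction, String (stg) is the phosphatase that starts mitosis and is turned off in endocycling cells, and SuUR slows replication of late domains so that they stay underreplicated.

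The data are 4 lists of regions on dm6, each region with a signal, the peak caller's own value, and a rank by that signal. Replicate 3's list held 29999 regions and replicate 4's 30000, while the list of the pooled replicates held 30000. The submitters' list past the irreproducible discovery rate (IDR, a measure of how alike regions rank in replicates) held 3312 regions, and these were exactly the 3312 strongest of the pooled list. A replicate's own regions down to rank 3312 are therefore called its strongest here. Read depth is unknown, signals compare only within 1 list, and each value is a single value per list with no error of its own.

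Of the 10 genes, 4 had an IDR summit, namely E2f1, Dp, fzr and stg, and the 10 windows held 14 such summits. Among all protein-coding genes 22.9% had an IDR summit by the same rule. The share was higher for longer windows: it was 18.1% for windows under 10 kb, 35.3% for windows of 10 to 20 kb and 48.2% for windows over 20 kb. Of the 7 members under 10 kb (E2f2, Dp, Rbf, Cdk2, dap, stg and SuUR) Dp and stg had one, the single member of 10 to 20 kb (fzr) had one, and of the pair over 20 kb E2f1 had one and CycE had none. Within 1 kb of an own transcription start site (TSS) an IDR summit lay at E2f1, Dp and stg, where 14.4% of all genes had one.

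The replicates on their own put 6 of the 10 genes among those with a strongest region, adding E2f2 and CycE in each. The background was 25.4% of genes for replicate 3 and 23.2% for replicate 4. At E2f2 and CycE the strongest regions of replicate 3 and of replicate 4 were not the same regions, as described below. In the full lists, which reach down to background, 8 genes had a region in the pooled list (60.3% of all genes did), 8 in replicate 3 (65.6%) and 9 in replicate 4 (64.9%). The gene absent from every list was SuUR, and Rbf was absent from all but replicate 4's.

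**Figure D1:**
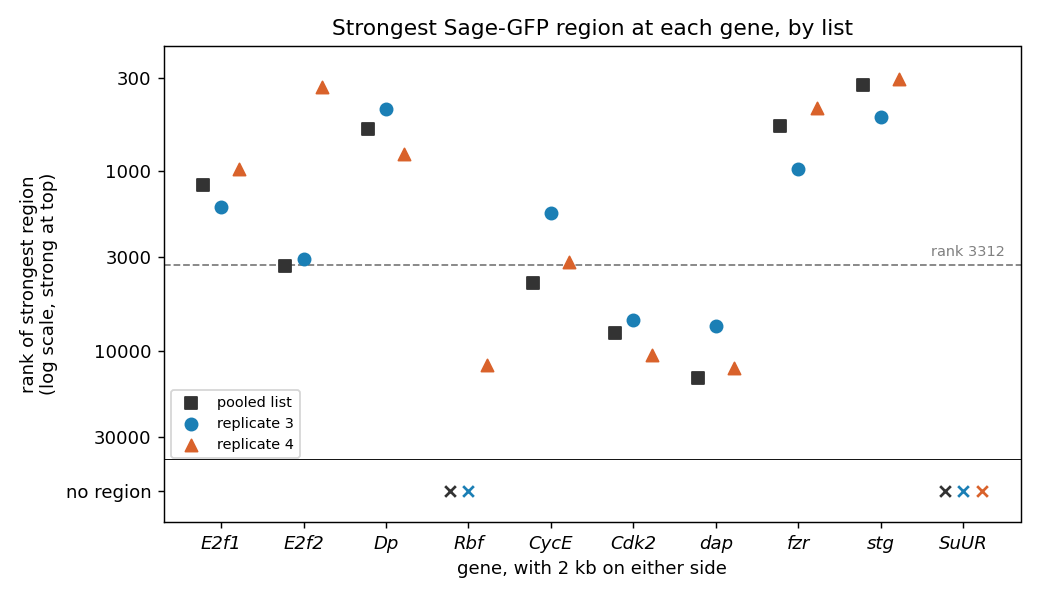
Rank of the strongest region in or within 2 kb of each gene in the pooled list (squares), replicate 3 (circles) and replicate 4 (triangles), on a log axis with strong regions at the top; crosses mark genes with no region and the dashed line is rank 3312. The symbols of stg, fzr, Dp and E2f1 all lie above the line, and those of Cdk2 and dap all lie below it.

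E2f1 (FBgn0011766, chr3R:21620304-21660871, minus strand), the activating E2F, carried 9 of the 14 IDR summits, 6 of them in the gene itself, 1 within 1 kb of an own TSS and 3 among the strongest 1656 IDR regions. Its window of 44.6 kb held 0.202 IDR summits per kb, against 0.0246 over the arms. Of the 1298 genes with windows over 20 kb, 17 (1.31%) had as many, and their median was 0. Weaker regions were dense as well: the pooled list had 40 regions in the window, 0.898 per kb against 0.224 over the arms, replicate 3 had 33 and replicate 4 had 45. The next member, stg, had 3 IDR summits.

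The strongest E2f1 summit of the pooled list lay in front of an internal promoter. It was at chr3R:21633188, 115 bp upstream of the fourth of the gene's 5 annotated TSSs, in an intron of the longer transcripts and in an exon of the antisense gene asRNA:CR46055. Its signal was 158 in the pooled list (rank 1197), 63.2 in replicate 3 (rank 1634) and 95.1 in replicate 4 (rank 1216), so it was among the strongest of both replicates. The 101 bp around the summit (chr3R:21633138-21633238) are shown on the strand of the gene. This window was chosen because it holds the E2f1 IDR summit closest to a TSS of the gene. The capitals mark the single E-box, the CANNTG word that bHLH proteins bind.
E2f1 internal promoter: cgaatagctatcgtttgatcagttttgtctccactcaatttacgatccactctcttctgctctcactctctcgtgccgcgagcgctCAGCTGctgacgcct
The E-box reads CAGCTG and starts at base 87 of the window, away from the summit at its centre. The window also held TATCG, the reverse complement of CGATA, at base 9, and CTCTC, the reverse complement of the GAGAG word of GAGA factor, at 4 positions, and 51.5% of its bases were G or C.

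Downstream of that promoter, towards the coding part, came the next ones in strength. A summit at chr3R:21626653, in a 5' UTR exon 6040 bp downstream of the fifth TSS, had signals of 142 in the pooled list, 64.5 in replicate 3 and 83.0 in replicate 4. Of the 14 IDR summits this was the one the replicates ranked most alike, with ranks of 1576 and 1666 in replicates 3 and 4. A neighbour at chr3R:21627899, in an intron, had 140 in the pooled list, 53.9 in replicate 3 (rank 2363) and 97.0 in replicate 4 (rank 1171). Neither window held an E-box within 50 bp of the summit. The intronic summit at chr3R:21641742, 3248 bp upstream of the third TSS, had 119 pooled, 45.5 in replicate 3 (rank 3401) and 71.2 in replicate 4 (rank 2306).

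The first intron of the transcripts that start at the first and second E2f1 TSSs held summits that replicate 3 ranked higher. These, at chr3R:21651247 and chr3R:21650407, 9624 and 10464 bp downstream of the first TSS, had pooled signals of 109 and 107. They ranked 2747 and 1656 in replicate 3 but 4973 and 7578 in replicate 4. Both were thus among the strongest of replicate 3 and not of replicate 4, the second with signals of 62.9 in replicate 3 and 37.1 in replicate 4. Replicate 4 had strongest regions of its own nearer the 5' end, at chr3R:21656689 (71.0, rank 2319) and chr3R:21657557 (63.8, rank 2859), whose replicate 3 counterparts ranked 3472 and 19449. Replicate 3 had others at chr3R:21628565, chr3R:21630400 and chr3R:21636395, at ranks 3036 to 3072, which ranked 5550 to 6967 in replicate 4.

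The 3 remaining IDR summits of the E2f1 window were nearer to other genes, and replicate 4 ranked all 3 higher. The one at chr3R:21619388 was 916 bp beyond the 3' end of E2f1 and 67 bp upstream of a TSS of InR, the insulin receptor gene. It had 113 in the pooled list, 30.2 in replicate 3 (rank 7953) and 105 in replicate 4 (rank 971), where it was the strongest of the whole window. A further one at chr3R:21618447 lay in an InR intron (pooled 99.8, ranks 4677 and 1757 in replicates 3 and 4). The last, at chr3R:21662654, lay in an intron of Archease, 1783 bp upstream of the first E2f1 TSS (pooled 116, ranks 5617 and 1764). At the first E2f1 TSS itself the nearest pooled region was 227 bp upstream at rank 3773, outside the IDR list.

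**Figure D2:**
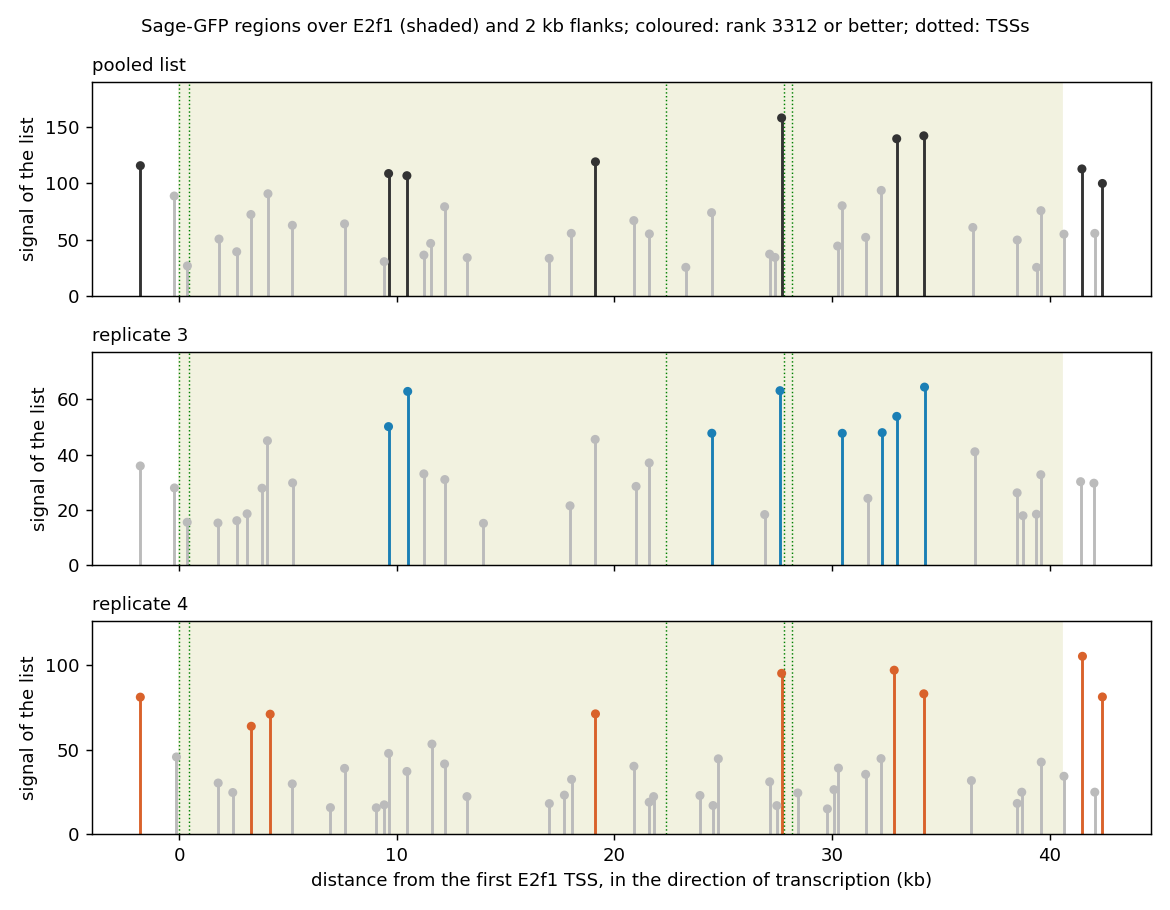
Signal of every region over E2f1 (shaded) and its 2 kb flanks in the pooled list, replicate 3 and replicate 4 (each panel on its own scale, which starts at 0), against the distance from the first TSS in kb; coloured stems rank 3312 or better in their list and dotted lines are TSSs. The stem before the internal promoter is coloured in all 3 panels, while in the flanks 3 stems are coloured in the pooled list and 3 in replicate 4, beside grey ones, and all are grey in replicate 3.

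Dp (FBgn0011763, chr2R:13222433-13228202, plus strand) encodes the partner that E2F proteins need to bind DNA. It had a single IDR summit, at chr2R:13223443, in an intron and 148 bp upstream of the second of its 3 TSSs. The signal was 219 in the pooled list (rank 582), 111 in replicate 3 (rank 450) and 114.5 in replicate 4 (rank 801). Of the strongest IDR summits of E2f1, Dp, fzr and stg it was the one that replicate 3 ranked higher. The summits of the replicates lay within 3 bp of the pooled one. No other region of Dp was among the strongest of any list: the next pooled one had a signal of 78.1 (rank 4790) in the 3' UTR, one 273 bp upstream of the third TSS had 69.0 (rank 5985), and one 2 bp upstream of it had 25.7 (rank 27277). In the pooled list the strongest summits of both E2f1 and Dp thus lay upstream of an internal TSS. At E2f1 neither replicate alone put that region first. Replicate 3 ranked it 1634, behind the 5' UTR region (1576). Replicate 4 ranked it 1216, behind the region at InR (971) and an intronic region (1171).

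E2f2 (FBgn0024371, chr2L:21154293-21156749, minus strand), the repressive E2F, had no IDR summit, though its best region ranked close to the last of that list. Its strongest pooled region had a signal of 95.1 at rank 3348, where the weakest IDR region had 95.7 at rank 3312. The summit at chr2L:21156314 lay in 5' UTR sequence shared by E2f2 and Mpp6, which are transcribed in opposite directions and overlap here. It was 82 bp upstream of an E2f2 TSS and 26 bp downstream of an Mpp6 TSS. Replicate 3 ranked it 3076, among its strongest (signal 47.7), and replicate 4 ranked it 4382 (51.2). At the first E2f2 TSS, a pooled region 102 bp upstream had a signal of 80.4 (rank 4515). Its summit was closer to Mpp6, 6 bp downstream of an Mpp6 TSS. There the order turned round: replicate 3 had 29.6 (rank 8294) and replicate 4 had 55.0 (rank 3817).

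Replicate 4 had a much stronger region near E2f2 that the other lists lacked. At chr2L:21158678, 1929 bp upstream of E2f2 and 67 bp upstream of a TSS of Coq3, it had a signal of 165 and rank 340. Neither replicate 3 nor the pooled list, which includes the reads of replicate 4, had a region that met it. Absence from the pooled list was not limited to this site. It held for 188 of 3297 strongest regions of replicate 4 on the arms (5.70%) and 175 of 3310 of replicate 3 (5.29%). Of replicate 4's, 8 ranked at least as high as the one near E2f2, itself included. Why the lists differ at this site was not tested.

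Rbf (FBgn0015799, chrX:797090-801479, minus strand), the fly retinoblastoma protein that holds E2F1 in check, had no region in the IDR, pooled or replicate 3 list. Replicate 4 had weak ones just past its 3' end, with signals of 27.3 (rank 11941) and 22.6 (rank 15681), both in the 3' UTR of the neighbour CG16989. The nearest IDR summit was 21667 bp from the gene. Of the genes for the restraining proteins, then, E2f2 stood at the threshold and Rbf had no region in 3 of the 4 lists.

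CycE (FBgn0010382, chr2L:15727581-15748150, minus strand), the cyclin that drives S phase in both cycles, had 11 pooled regions but none in the IDR list, where 48.2% of genes of its length class had one. The strongest regions of the replicates lay at different places. Replicate 3's best region was at chr2L:15747229, 619 bp upstream of the second TSS, with a signal of 62.3 and rank 1700. The region that meets it in replicate 4 had its summit 373 bp away, with 21.3 and rank 17118. Replicate 4's best was at chr2L:15743826, 2784 bp downstream of that TSS in an intron, with 60.4 and rank 3179, where replicate 3 had 23.7 and rank 12623. In the pooled list replicate 3's best met summits 175 bp away (73.6, rank 5302) and 70 bp away (56.2, rank 8408). Replicate 4's best had 84.0 there (rank 4161). The intronic pooled window (chr2L:15743777-15743877) is shown as an example of a region below the IDR threshold that still holds E-boxes, in capitals, CATATG and CAATTG.
CycE intron: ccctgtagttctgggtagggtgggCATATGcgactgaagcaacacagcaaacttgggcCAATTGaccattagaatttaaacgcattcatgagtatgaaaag
At the first TSS of CycE the pooled region 80 bp upstream had a signal of 51.3 and rank 9729.

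The gene for the cyclin E/CDK2 inhibitor, dap (FBgn0010316, chr2R:9712321-9716256, plus strand), had weak regions only. In the pooled list they lay 37 bp downstream of the TSS (40.7, rank 14061) and 748 bp upstream (40.4, rank 14241), close to the pooled median of 39.0. Replicate 3 had 31.7 (rank 7238) and 28.1 (rank 9144) at these places, and replicate 4 had 1 region, 691 bp upstream (26.5, rank 12474).

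Cdk2 (FBgn0004107, chr3R:20735623-20738414, plus strand), the kinase that cyclin E activates, likewise showed a weak region upstream of its TSS and none in the gene. The pooled summit was 140 bp upstream of its only TSS, with a signal of 58.6 and rank 7899. Replicate 4 had its summit at the same base (29.9, rank 10492), while replicate 3 had summits 302 bp (32.8, rank 6741) and 78 bp upstream (17.0, rank 22539). The nearest IDR summit was 25941 bp from Cdk2 and 20404 bp from dap.

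At fzr (FBgn0262699, chrX:4667290-4679537, minus strand), which encodes the activator of the anaphase-promoting complex that endocycles need, the strong region lay past the 3' end of the gene. Its summit, chrX:4667045, was 245 bp beyond the 3' end of fzr and 10488 bp from its nearest TSS, but 345 bp upstream of the TSS of CG3009. Its signal was 225 in the pooled list (rank 558), 80.2 in replicate 3 (rank 971) and 148 in replicate 4 (rank 443), so all lists held it among their strongest. In the 101 bp around it (chrX:4666995-4667095, minus strand, on which both genes are read) the capitals mark the E-box CAGCTG, at base 67, and the word CGATA starts at base 56.
fzr 3' end and CG3009 upstream: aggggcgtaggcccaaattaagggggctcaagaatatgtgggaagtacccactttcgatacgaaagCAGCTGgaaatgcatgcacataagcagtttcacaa
At the promoter of fzr itself only weaker regions were found. The pooled ones 542 and 755 bp upstream of the first TSS had signals of 65.3 (rank 6582) and 64.0 (rank 6792). Both lay in the 3' UTR of the neighbour Pp2C1. A pooled region near the second TSS was at rank 19991. Replicate 3 ranked its upstream region 3938 and replicate 4 ranked its own 16094 and 16732.

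The stg gene (FBgn0003525, chr3R:29251826-29255800, minus strand), the Cdc25 phosphatase that activates the mitotic kinase CDK1, had the strongest pooled region of all 10 genes and 3 IDR summits in a window of 7.98 kb. Of the 10985 genes with windows under 10 kb, 88 (0.801%) had as many. The strongest summit, chr3R:29256337, was 537 bp upstream of the first stg TSS and 148 bp upstream of that of CG45544, which runs the other way, so the interval is shared. It had a signal of 284 in the pooled list (rank 331), 106 in replicate 3 (rank 500) and 173 in replicate 4 (rank 306). The next, chr3R:29257010, lay in an intron of CG45544, 1210 bp upstream of stg, and of the 14 IDR summits this was the one whose ranks differed most between the replicates: 174 in the pooled list (rank 942), 37.4 in replicate 3 (rank 5160) and 137 in replicate 4 (rank 546). The third, chr3R:29254563, was in the first intron of stg, 762 bp downstream of its second TSS (137 pooled, ranks 2561 and 1375 in replicates 3 and 4). Near the 3' end of stg, in its 3' UTR, a pooled region below the threshold had 71.6 (rank 5581), which replicate 3 ranked 3504 and replicate 4 ranked 16432.

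The first and second of these regions are printed on the strand of stg, since they neighbour each other and differ in the words they hold and in how the replicates ranked them; capitals mark E-boxes.
stg shared upstream (chr3R:29256287-29256387): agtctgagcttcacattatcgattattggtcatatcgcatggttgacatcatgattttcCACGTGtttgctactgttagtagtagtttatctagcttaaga
stg distal (chr3R:29256960-29257060): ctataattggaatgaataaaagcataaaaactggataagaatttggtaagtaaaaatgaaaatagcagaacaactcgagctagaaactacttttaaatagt
The shared upstream window held the E-box CACGTG at base 60, 9 bases past the summit, which is base 51. It was the only one of the 14 member windows with that word. Of all IDR windows 0.759% held it, and of windows 500 bp to either side of IDR summits 1.47%. It also held TATCG, the reverse complement of CGATA, at bases 17 and 33, and TGATTT, the reverse complement of the Senseless core AAATCA, at base 52. The distal window, with 26.7% G and C, held none of the words searched.

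In the pooled list the regions ranked directly above and below the strongest stg region were in an intron of jigr1 (signal 285, ranks 456 and 286 in replicates 3 and 4) and at the promoter of ush (284, ranks 2258 and 150). The stg region, at ranks 500 and 306, was placed by the replicates more like that of jigr1. Both genes are named by rank alone.

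SuUR (FBgn0025355, chr3L:11064991-11069025, plus strand), best known from salivary gland polytene chromosomes, had no region in any list. The annotation gives CG45101 the very same span. The nearest pooled summit was 2289 bp away at the promoter of CG32069 (88.0, rank 3825), and the nearest IDR summit was 3559 bp away near Blos2 (116, rank 2258).

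**Figure D3:**
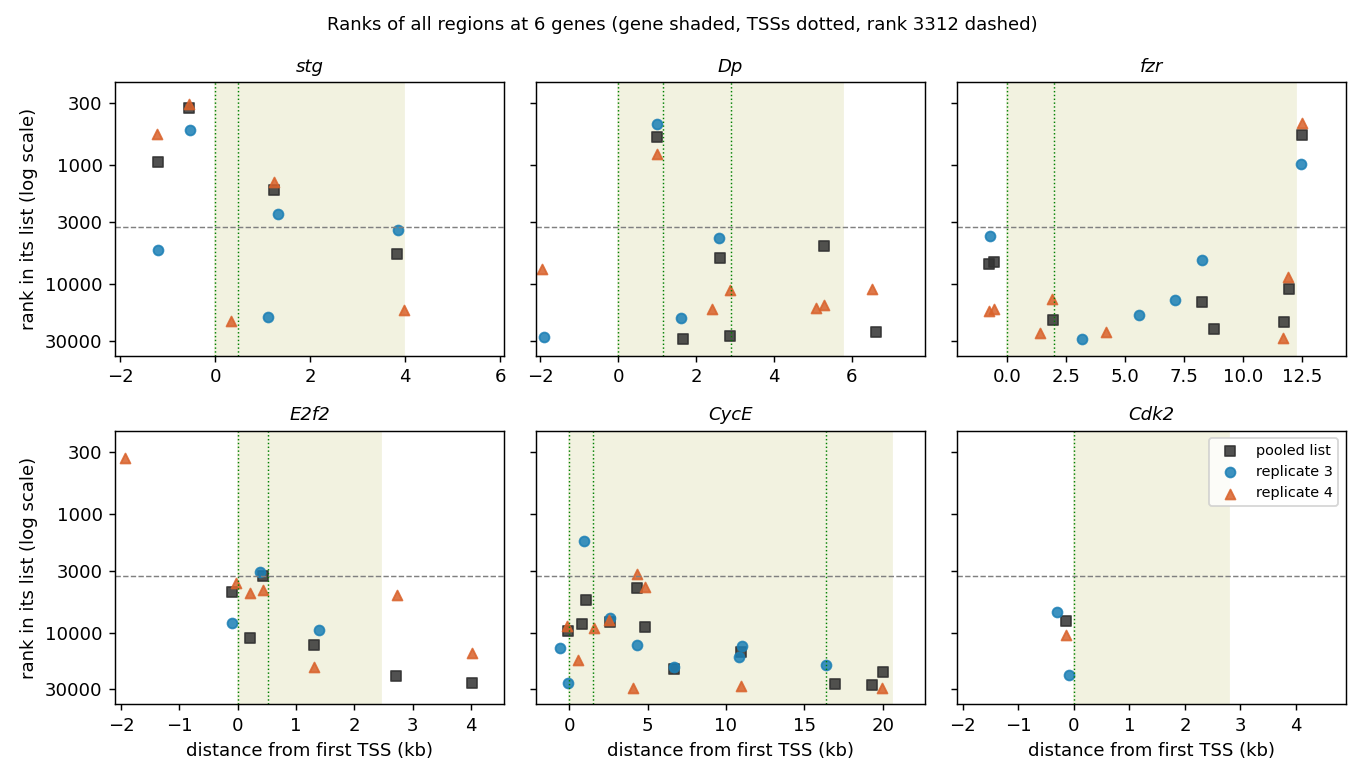
Rank of every region (log axis, strong at the top) against the distance from the first TSS in kb at stg, Dp, fzr, E2f2, CycE and Cdk2, for the pooled list (squares), replicate 3 (circles) and replicate 4 (triangles); the gene is shaded, TSSs are dotted and rank 3312 is dashed. Symbols of all lists stack at the strongest stg, Dp and fzr sites, whereas at CycE and E2f2 those above the dashed line come from single replicates and lie apart.

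Across the 14 IDR regions of the members, every one had a counterpart in the full list of each replicate, and 7 of 14 met a strongest region in both, where 58.5% of all 3292 IDR regions on the arms did. The 7 were at stg (the first and the third), fzr, Dp and E2f1 (the 3 strongest). Replicate 4 ranked 10 of the 14 higher than replicate 3 did, where 47.9% of all regions found in both were ranked higher by replicate 4. All 6 summits outside a member gene were among the 10, and so were 4 of the 8 inside one. The same split was not made over all IDR regions, so these counts have no background. Some of the 6 also neighbour each other, at InR and at CG45544. The log2 ratio of the ranks (replicate 4 over replicate 3) lay between -0.84 and 0.91 for the middle 50% of all regions. Outside this range were 8 of the 14 regions. Of these, 7 ranked higher in replicate 4, from -0.90 at the intronic stg summit to -3.24 at the distal stg summit. The remaining 1 ranked higher in replicate 3, at 2.19, in the first intron of E2f1.

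**Figure D4:**
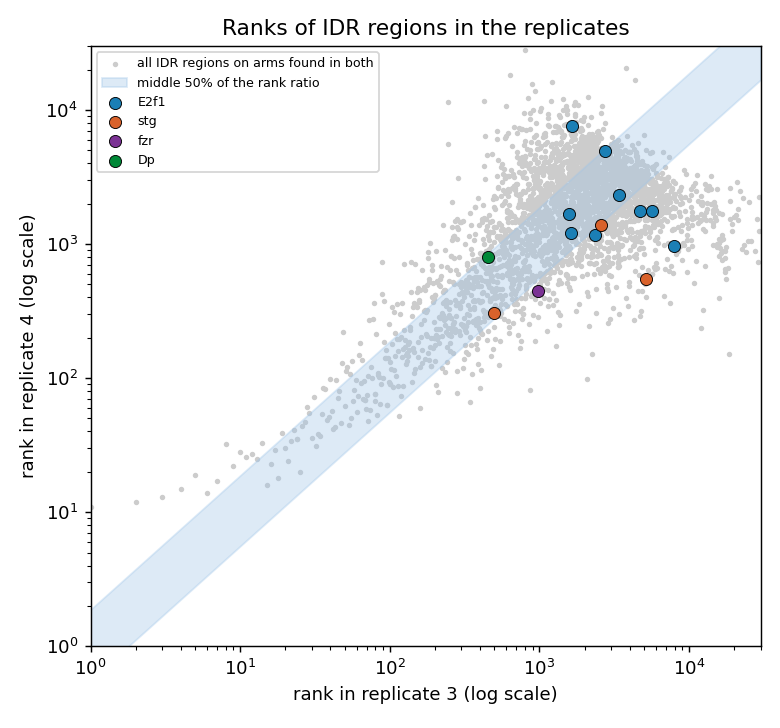
Rank in replicate 4 against rank in replicate 3, both on log axes, for all IDR regions on the arms found in both replicates (grey) and the 14 of E2f1, stg, fzr and Dp (coloured); the blue band is the middle 50% of the rank ratio. Of the coloured points 7 lie below the band, ranked higher in replicate 4, and 1 E2f1 point lies above it.

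Several of these summits lay nearest to other genes. The nearest protein-coding TSS was that of the member for 8 of the 14 summits, 6 at E2f1 and 1 each at Dp and stg. For the other 6 it belonged to InR (2 summits), Archease, CG3009 and CG45544 (2 summits). Within 1 kb of an own TSS lay 4 of the 14. The same shares of summits over the windows of all genes were not counted.

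Within 50 bp of the summit, 8 of the 14 windows held an E-box, CANNTG read on both strands, where 35.4% of all IDR windows and 40.3% of windows 500 bp to either side of IDR summits did. With 100 bp on either side it was 9 of 14 against 60.8%. The word CAGCTG was in 3 windows, at the internal promoter and in the first intron of E2f1 and at fzr (4.80% of IDR windows, 4.85% of the flanks). The member windows had more G and C (39.0%) than all IDR windows (34.7%) and less than the flanks (42.9%). Neither the forkhead core TGTTTA (14.6% of IDR windows), the DRE word TATCGATA (1.49%, which contains CGATA), the CREB core TGACGT (2.0%) nor CAGGTA (1.97%) was in any of the 14. The Senseless core AAATCA was in 1 (12.8%), CGATA in 3 (16.2%) and GAGAG in 2 (15.2%). None held an E2F site (TTTCCCGC, TTTGGCGC, TTTCGCGC or TTTGCCGC, 1.82% of IDR windows), and with 100 bp on either side the intronic stg summit did.

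Other genes of the same processes were read from 4 lists of 65 genes, all found in the annotation. In all, 21 (32.3%) had an IDR summit in the gene or within 2 kb. In 7 the gene itself was the nearest for one of them, a share that was not counted over all genes. The percentages below stand beside the same 22.9% of all genes, and the lists are short. Most of the listed genes have windows under 10 kb, where the share of all genes was 18.1%. The lists were not split by window length.

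Among 13 regulators of G1/S and growth, 5 had an IDR summit (38.5%). The strongest was at SkpA, a subunit of the ligase that degrades cyclin E (signal 304, rank 288), but in an intron of Hmt4-20. At trbl, which promotes the destruction of String, all 3 summits were intronic and its own, with 224 for the strongest (ranks 440 and 883 in replicates 3 and 4). Myc, the growth regulator, had 3 of its own with up to 142 (ranks 1287 and 2550), and CycG had 128 (ranks 3774 and 1612).

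Of 29 replication factors 7 had one (24.1%). Chiffon (chif), the activating subunit of the CDC7 kinase that fires origins, had the strongest, with 590 (rank 57, and 71 and 48 in replicates 3 and 4) in an intron 985 bp from a chif TSS; that intron also belongs to Hyls1. Those at PolD1, a DNA polymerase delta subunit (474.5, rank 91), Sld5, a subunit of the replicative helicase (290, rank 322), and PolE1, of DNA polymerase epsilon (166, rank 1055), were nearest to the neighbours Arl1, Cmpk and Sec13.

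Mitotic regulators had one in 5 of 17 cases (29.4%). CycB, cyclin B, had a signal of 210 (ranks 763 and 640) 577 bp downstream of the gene, and fzy, the mitotic counterpart of fzr, had 135 at 1 bp from its TSS (ranks 1185 and 3363). The polo kinase gene had 120, nearest to alphaSnap and ranked 843 and 12358 by the replicates, and mr, a subunit of the anaphase-promoting complex, had 119, nearest to PPP1R15 and with no region in replicate 3. Of 6 genes of the dREAM complex, to which E2F2, DP and RBF or RBF2 also belong, 4 had one (66.7%). They were Caf1-55 (704.5, rank 40), lin-52 (291), mip40 (230) and Myb (97.9), and in none of them was the gene itself the nearest. Of the complex's genes counted elsewhere here, Dp had an IDR summit, while E2f2, Rbf and Rbf2 had none.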

How the data were processed

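Chromatin immunoprecipitation with sequencing was done by the submitters on 2 samples of 1 group, biological replicates 3 and 4 (numbered so in the labels; whether they are separate cultures is not stated). Per the labels, chromatin was sonicated to 200 to 800 bp. The deposited signal of each region is a value that the authors' peak caller gave relative to a control, per the text deposited with the lists. Its scaling, the aligner, the caller and their versions are not stated there or in the labels, and read depth is unknown. The control library was not analysed here. The 4 dm6 lists were used, and the dm3 lists were not.

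Summits (start plus offset, counted from 1) were assigned with pandas 2.3.3 in Python 3.11.15 to genes of Ensembl release 115 (dm6 coordinates), a summit counting for every gene whose window holds it. Sequence came from the RefSeq Release 6 genome. No list had a region beyond a chromosome end. Ranks run over the whole list, and 20 IDR regions lie off the arms. Regions of different lists matched when they shared 1 bp, the strongest being taken. The assignment, matching and word search were tested on planted cases. With 1 group no test was made. The genes named are all 10 members, up to 4 genes per list with the strongest regions, and the rank neighbours of the strongest region. Members and lists were chosen with earlier results of these data known. UTR sequence and the sequence of some chromosomes are not printed here.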

Additional observations from a re-analysis of the deposited data

How the results depend on the processing

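The 4 genes with an IDR summit were also those found with 1 kb windows, with any base of the region in the window and in the strongest 1656 IDR regions. With 5 kb windows SuUR joined them (5 genes). In the gene only, within 1 kb of an own TSS, and with the nearest protein-coding TSS only, fzr dropped out (3 genes). The 14 summits became 8 in the gene only, 4 within 1 kb of an own TSS, 8 with the nearest TSS only and 8 in the strongest 1656, since each of these keeps fewer places or regions; 1 kb windows gave 11 and 5 kb windows 16. Without a replicate, that is from the other's strongest regions alone, the genes were 6 either way and the summits 14 to 16, with E2f2 and CycE added. The 9 summits of E2f1 became 1 within 1 kb of an own TSS and 3 in the strongest 1656. At stg 1 summit was left in the gene only and with the nearest TSS only. Regions strong in both replicates numbered 6 rather than 7 when summits had to lie within 100 bp or regions to share 50% of both lengths, and those outside the middle 50% of rank ratios 8 or 9. Unknown depth limits every statement on weak regions.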
